A study of Mus musculus with 4 samples.

Results

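Zones of replication initiation that ranked among the highest-scoring 10% in both replicate sets of a mouse embryonic stem cell map made up 1480 pairs on chromosomes 1 to 19. Each pair joins a zone of set 1 and a zone of set 2 that share at least 1 bin of 1 kb. The pairs used 1476 of the 27871 zones that set 1 lists on these chromosomes and 1460 of the 24245 that set 2 lists there. Members were chosen by the measured scores, with a minimum of 59.2 in set 1 and 75.2 in set 2, so score and overlap are given as descriptions without a test.

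The map comes from E14tg2a cells, a mouse embryonic stem cell line, and covers 2 lines with 2 samples each. The parent line carries Tet-OsTIR1 at Rosa26 and mAID-RNaseh2a, an auxin degron on the catalytic subunit of RNase H2, marked with puroR. The second line carries the same alleles together with Pole1-M630F, a mutant of the catalytic subunit of DNA polymerase ε. The labels mark each allele "(bi)". All 4 samples had 24 h of doxycycline with auxinole, which holds off degradation, and then 12 h of doxycycline with the auxin IAA. Genomic DNA was cut with alkali, and fragments of 300 to 2000 bp were taken. Each set is 1 list without values per library, and the libraries of replicate 1 and replicate 2 of both lines carry the 2 set names. The sources used here do not state if parent libraries contributed to the calls. Parent and mutant could therefore not be compared, and the read depth behind a zone is unknown. Nothing in the labels says that replicates came from separate cultures, so differences between sets may be technical. The number of clones behind each line is not given either.

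In mammalian cells replication does not start at fixed points but within broad zones in which any of many sites can be used in a given cell cycle. From such a zone the forks move apart, and DNA polymerase ε copies the leading strand on both sides. A mutant of this polymerase that inserts extra ribonucleotides marks the leading strand when RNase H2, which would remove them, is depleted. The strand that carries the marks then switches at an initiation zone, and alkali cuts the DNA at each mark. How the deposited score relates to this switch is not stated.

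Membership was more frequent at high scores within the strong zones of each set. In set 1, 52.9% of the 2788 strong zones were in a pair (95% exact Clopper-Pearson interval 51.1 to 54.8), and in set 2 60.2% of 2426 were (58.2 to 62.1). Of all zones, 12.5% in set 1 and 14.3% in set 2 met a strong zone of the other set, and since overlap with a strong zone is the rule itself, nothing is read from the excess. These intervals cover counting error and treat zones as independent, which neighbours on a chromosome are not. Strong zones were cut into 5 classes of equal size by score. In set 1 the share in a pair went from 32.0% in the lowest class through 41.8%, 47.0% and 60.2% to 83.7% in the highest. The same classes of set 2 gave 38.1%, 50.3%, 59.4%, 69.3% and 83.7%. The sets differed most in the middle class and met in the highest. Median width went from 64 to 98 kb over the classes of set 1 and from 74 to 110 kb over those of set 2, and a wider zone meets another list more easily; the part of width in this difference was not tested.

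**Figure D1:**
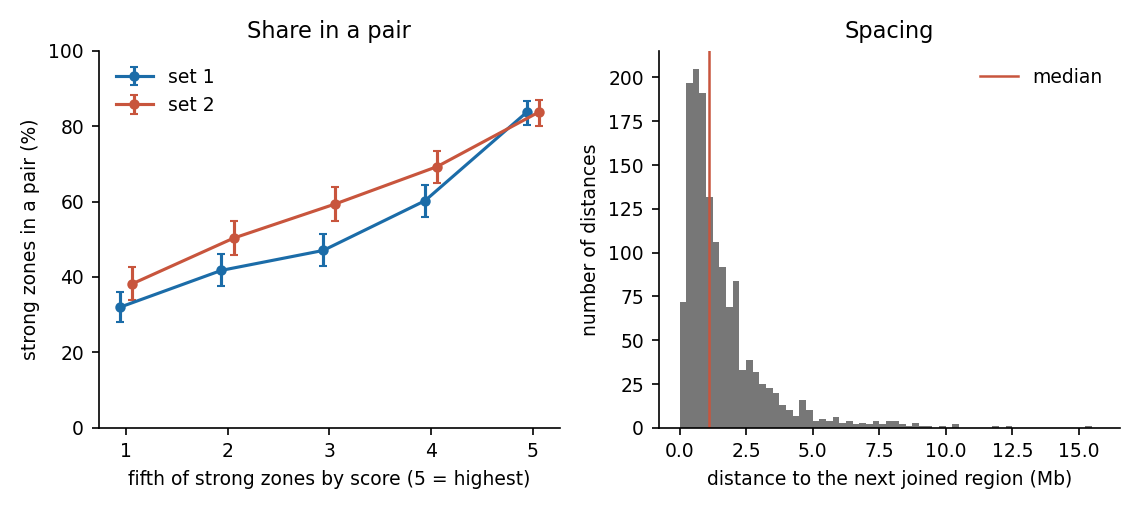
Left, the share of strong zones that are in a pair (%, y) by class of score (x, 5 is the highest) for set 1 and set 2, with 95% exact binomial intervals: both lines reach 83.7% in the highest class. Right, the number of distances (y) by distance from one joined region of pairs to the next (Mb, x), with the median of 1096 kb marked: most distances are short and a thin tail reaches 15322.5 kb.

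The minimum cuts through a continuum. The lowest set 1 member, on chromosome 7 from 139158000 to 139219000, scored 59.22 and met a set 2 zone of 103.5. A set 1 zone on chromosome 15 from 58710000 to 58774000 scored 59.17 and was left out, although its set 2 counterpart scored 99.6. The lowest set 2 member, on chromosome 10 from 30658000 to 30730000, scored 75.17 against 61.9 in set 1. On chromosome 11 a set 2 zone from 44621000 to 44682000 scored 75.02 and stayed outside, over a set 1 zone of 64.1. Scores are the authors' own and have no stated unit, so they are not compared between sets. Positions are GRCm39, and the last position is the start of the last 1 kb bin of a zone.

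Strong zones outside pairs mostly lay over a zone of middling to high score in the other set. Of 1312 such zones in set 1, 33 met no zone of set 2 (2.52%), and of 966 in set 2, 16 met none of set 1 (1.66%). The best zone that the rest met had a median score percentile of 80.3 for set 1 and 81.1 for set 2. In 50.2% of the set 1 zones and 53.2% of the set 2 zones the counterpart lay between the 80th and the 90th percentile of its own list. A counterpart below the median of its list was the best match of 7.24% and 7.14%. Across all zones, a counterpart of any score was present for 56.3% in set 1 and 60.2% in set 2. Strong zones outside pairs were also wider, with medians of 71 and 80.5 kb against 19 and 23 kb over all zones. A wider zone more easily meets another list, and more than 1 of its zones. The part of width in these shares and percentiles was not tested.

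Member zones were wide, in part by their choice, since width rose over the score classes and a wider zone meets another list more easily. The median width of members was 82 kb in set 1 (quartiles 69 and 103) and 89.5 kb in set 2 (75 and 112), against 19 and 23 kb over all zones. Strong zones outside pairs measured 71 and 80.5 kb. The part common to both zones of a pair had a median of 68 kb, and the stretch covered by either had a median of 110 kb. Taken pair by pair, the common part made up a median of 65.8% of the joint extent, with quartiles of 50.8 and 77.8%. A score per kb of 1.13 in set 1 and 1.25 in set 2 stood beside 1.07 and 1.16 in strong zones outside pairs, and 0.450 and 0.433 over all zones, which were not chosen by score. Within the members, scores of the 2 sets had a rank correlation of 0.270 and widths of 0.151 across 1480 pairs. Those points share chromosomes and were all cut at a score minimum, which narrows the range.

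Centre shifts are capped by the pairing rule, since 1 shared bin keeps a shift below the mean width of the pair. The centre of the set 2 zone lay a median of 14 kb from that of the set 1 zone (quartiles 6.5 and 26.1 kb), which was 15.1% of the mean width of the pair. It lay at a higher position in 740 pairs, at a lower one in 730 and at the same point in 10, with a median signed shift of 0.25 kb. Left edges differed by a median of 16 kb (quartiles 7 and 31) and right edges by 17 kb (7 and 31). Signed left and right offsets had a rank correlation of 0.279 across pairs. Set 2 edges lay further out on both sides, with signed medians of -3 kb at the left and 3 kb at the right. The set 2 zone was the wider in 879 pairs and the set 1 zone in 578, with a median width difference of 8 kb.

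4 arrangements shared the pairs. The set 1 zone lay inside the set 2 zone in 414 pairs (28.0%), and the reverse held in 237 (16.01%). The set 2 zone reached past the set 1 zone on the higher side and fell short on the lower side in 425 pairs (28.7%), with the mirror arrangement in 403 (27.2%). The remaining pair had the same first and last bin. Both edges agreed within 5 kb in 56 pairs (3.78%) and within 10 kb in 188 (12.7%). An overlap of at least 50% of each zone held in 1237 pairs, or 83.6%.

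**Figure D2:**
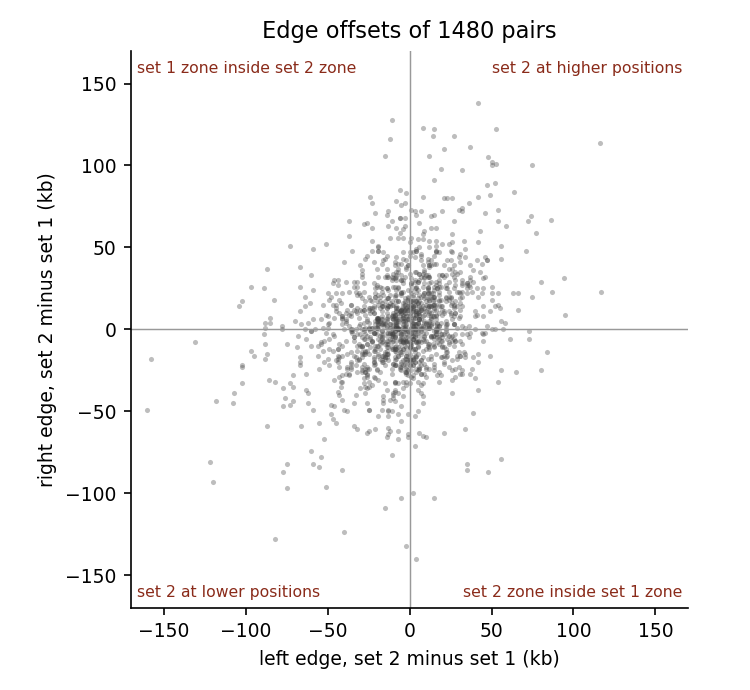
Offset of the left edge (kb, x) against offset of the right edge (kb, y), each as set 2 minus set 1, with 1 point per pair. The cloud is centred near 0 and extends into all 4 quadrants, with 414 pairs at the upper left, where the set 2 zone encloses the set 1 zone, and 237 at the lower right.

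Large edge offsets went with a zone of 1 set that covered several of the other. At 605 of the 2960 edges (20.4%) the zone that reached further out there also overlapped the next zone of the other list. At those edges the offset had a median of 44 kb (quartiles 28 and 66), against 13 kb (6 and 23) at the other 2355. A further zone can only be reached across its gap, so the larger offset is in part built in. The further zone belonged to set 1 in 392 cases and to set 2 in 213, that is, set 2 more often drew 1 zone where set 1 drew several. The 946 pairs without such an edge had a median centre shift of 9.5 kb and a common part of 73.2%. The 534 pairs with at least 1 had 27 kb and 49.5%. A set 2 member met exactly 1 zone of set 1 in 75.6% of cases, 2 in 19.6% and 3 or more in 4.79%. A set 1 member met exactly 1 zone of set 2 in 86.1% of cases. Members meet at least 1 zone by the rule, and they are wide. Set 1 also lists more zones, 27871 against 24245, so the difference between sets may be in part built in. The same shares over all zones were not counted, so nothing particular to the pairs is read from them.

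From the highest 10% of zones upwards the centre shift was nearly the same at each score minimum. Among the highest 50% of zones of each set the median shift was 17.5 kb, among the highest 20% 16 kb, the highest 10% 14 kb, the highest 5% 14 kb, the highest 2% 13.75 kb and the highest 1% 14 kb. Over the same steps the median width of the paired set 1 zones went from 54 to 106 kb, so the shift went from 31.9% to 12.0% of the mean width. The common part of the joint extent went from 43.3% to 73.2%. These nested groups share members. Inside the 1480 pairs the shift was larger for wide zones, with 11 kb in the narrowest 298 pairs and 19 kb in the widest 285. Median edge offsets went from 12.5 to 24 kb over the same width classes. The pairing rule lets wider zones lie further apart, so these increases may be in part built in.

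The best-ranked pairs illustrate how the same site was drawn in each set. The pair on chromosome 2 ran from 63684000 to 63848000 in set 1 (165 kb wide, score 204.1) and from 63716000 to 63823000 in set 2 (108 kb, score 234.9). Set 2 lay wholly inside set 1 there, and the centres were 3.5 kb apart. On chromosome 19 the set 1 zone at 31006000 to 31143000 (score 186.6) and the set 2 zone at 31022000 to 31190000 (score 229.5) differed by 47 kb at the right edge and 16 kb at the left. The next zone of set 1 followed 18 kb beyond that right edge, within the reach of the set 2 zone. The chromosome 1 pair shared its right edge within 2 kb, with 110672000 to 110751000 in set 1 and 110650000 to 110749000 in set 2. On chromosome 5 the set 1 zone at 7735000 to 7815000 lay inside the set 2 zone at 7724000 to 7845000. On chromosome 10 the right edges fell on the same bin, 23748000, and the left edges at 23637000 and 23618000. Each of these 5 pairs had a score percentile of 99.76 or more in both lists, and their centres differed by 3.5 to 31.5 kb.

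Some wide pairs of various ranks matched almost bin for bin. Edge offsets were smallest, among pairs wider than the median in both sets, for a pair on chromosome 13 that ran from 43439000 to 43540000 in set 1 and in set 2. Its score percentiles were 93.3 and 93.6, near the minimum. On chromosome 2 the zones at 65210000 to 65308000 and 65211000 to 65309000 were each 99 kb wide and 1 kb apart, with score percentiles of 99.4 and 99.2. Chromosome 6 held 2 of these pairs, from 6821000 to 6923000 and from 143029000 to 143151000 in set 1, and chromosome 10 held 1, from 50704000 to 50799000. The offsets of both edges added up to 3 kb in each of the last 3.

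At the other end, the largest centre shift was 115 kb, for a pair on chromosome 19 that met in a single bin. Its set 1 zone ended at 18587000, where its set 2 zone began. The next 4 pairs lay on chromosomes 3, 2, 11 and 12, with shifts of 106.5, 105, 104.5 and 101.5 kb and common parts of 22, 21, 11 and 2 kb. These 5 pairs thus barely overlapped, and 96 of 1480 pairs (6.49%) had centres over 50 kb apart.

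Gaps beside member zones were longer than the median of all zones, and so were those beside other strong zones. The gap to the next zone of the same set, of any score, had a median of 62 kb on either side in set 1, and of 76 kb on the left and 77 kb on the right in set 2. Over all zones the medians were 48 and 57 kb. On 19 of 19 chromosomes the members' median exceeded that of all zones, in each set. Strong zones outside pairs had longer gaps still in set 1, 71 kb, and the members' median was below theirs on 18 of 19 chromosomes. In set 2 they had 79 kb against 76.5 kb for members, with the members lower on 12 chromosomes, higher on 5 and equal on 2. No test over regions was made of these differences.

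**Figure D3:**
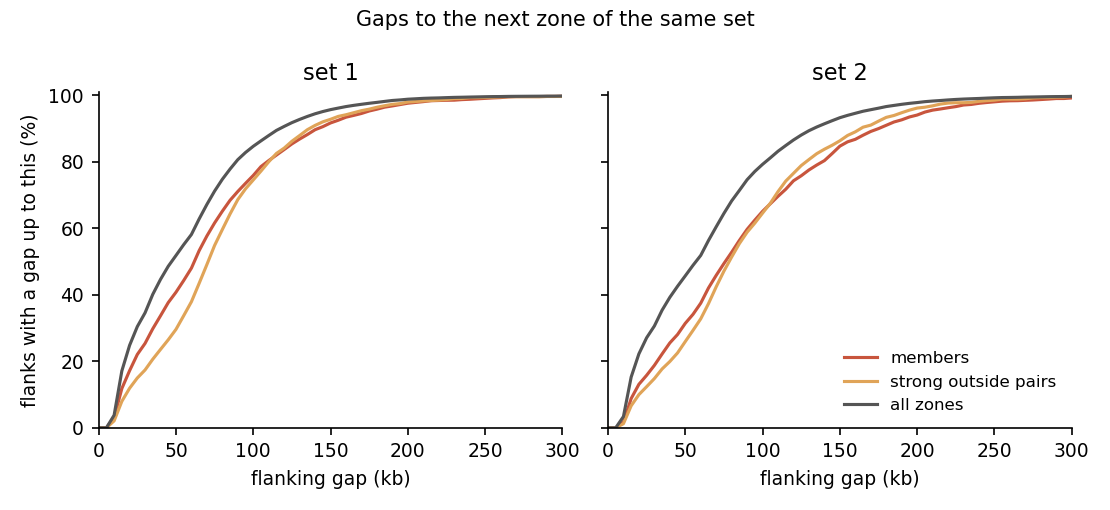
Cumulative share of flanks (%, y) with a gap up to a given length (kb, x), for member zones, strong zones outside pairs and all zones of set 1 (left) and set 2 (right). The curve for all zones lies above the other curves up to 200 kb, and in set 1 the members lie between all zones and the strong zones outside pairs up to 100 kb.

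Left and right gaps of a member had rank correlations of 0.0340 in set 1 and -0.0181 in set 2. A long gap in set 1 also said little about the gap on the same side in set 2 (rank correlation 0.152 on the left and 0.165 on the right, across 1477 and 1480 pairs). Gaps of 100 kb or more on both sides were found at 85 members of set 1 (5.76%) and 173 of set 2 (11.8%). Over all zones the shares were 2.05% and 3.95%, and for strong zones outside pairs 4.80% and 12.1%, so members and other strong zones had similar shares. The most isolated pair lay on chromosome 2, from 34221000 to 34312000 in set 1 (34227000 to 34321000 in set 2), with 145 and 148 kb free on its sides in set 1 and 154 and 131 kb in set 2. Pairs on chromosomes 10, 4, 7 and 3 followed, with shortest gaps of 128, 127, 125 and 124 kb. The chromosome 7 pair, from 106314000 to 106377000 in set 1, had 231 kb free on its right side in set 1 and 229 kb in set 2.

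Coverage by zones was measured outward from the pairs. At 70 to 90 kb from the centre of the common part, 20.7% of positions lay in a zone of set 1, and at 90 to 110 kb 19.2% lay in a zone of set 2. Zones covered 32.0% of the whole span in set 1 and 32.8% in set 2. A value below the mean beside a wide zone is partly built in, since at least 10 kb separate any zone from the next. Coverage rose outward, to 28.4% and 28.0% at 190 to 210 kb and 31.3% and 32.1% at 470 to 490 kb. Around the middle of their own zone, members had 17.1% covered in set 1 at 70 to 90 kb and strong zones outside pairs 11.6%. In set 2 these values were 14.04% and 9.74%. At 150 to 170 kb the order was the other way, with 26.6% for members and 31.2% for strong zones outside pairs in set 1, and 24.9% and 31.3% in set 2. Members were also the wider group, and the part of width in these values was not tested.

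**Figure D4:**
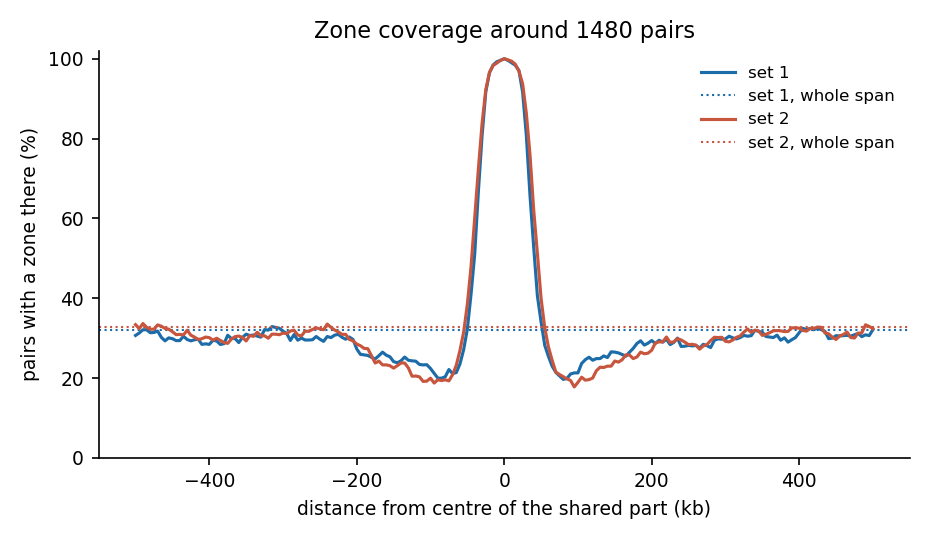
Share of the 1480 pairs (%, y) with a zone of set 1 or of set 2 at each distance from the centre of the common part (kb, x), with dotted lines for the share of the whole chromosome span that zones cover. Both curves fall from 100% to about 20% near 80 to 100 kb on either side and return towards the dotted lines beyond 200 kb.

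The neighbours of member zones were close to the average of their list in score. Their median score percentile was 50.1 in set 1 and 51.7 in set 2. A neighbour was itself strong in 9.93% of cases in set 1 (95% exact interval 8.88 to 11.1), against 5571 of 55704 cases next to any zone. In set 2 the shares were 12.0% (10.8 to 13.2) beside members and 10.01% beside any zone, with 12.9% next to strong zones outside pairs. Of the neighbours, 53.6% in set 1 and 60.6% in set 2 met any zone of the other set, beside 56.3% and 60.2% of all zones. Part of these met the partner of the very member they flank, 13.3% of neighbours in set 1 and 7.30% in set 2. Of the remaining neighbours 46.5% and 57.5% met another zone, a share over a reduced set that is not compared with that of all zones.

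Pairs whose joint extents overlapped were joined for the measure of spacing, which left 1456 regions, 24 of them made of 2 pairs. Their centres lay a median of 1096 kb apart (quartiles 614 and 2031.5 kb), and the lowest and highest distances were 97 and 15322.5 kb. The mean was 1618 kb with an SD of 1624 kb. Of 1437 distances, 269 were under 500 kb (18.7%) and 61 over 5000 kb (4.24%). Consecutive distances had a rank correlation of -0.00233 across 1418 neighbours. By chromosome the median ran from 891.75 kb on chromosome 2 to 1725 kb on chromosome 18.

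Close runs were few. Runs count pairs and not joined regions, so a set 2 zone that met 2 strong set 1 zones counts 2 times. Counting from each pair, 790 had no other within the next 1 Mb, 566 had 1 more and 112 had 2 more. The densest run lay on chromosome 14 from 45033000 to 46049000, with 5 pairs whose centres spanned 934.5 kb. In it set 2 drew 1 zone from 45491000 to 45578000 over 2 strong zones of set 1, from 45442000 to 45496000 and from 45535000 to 45590000. Runs of 4 pairs began at 11 of the pairs, and the tightest of them outside the densest run lay on chromosome 2 from 72822000 to 73662000 and on chromosome 5 from 86198000 to 87052000. The chromosome 5 run also held a set 2 zone, from 86891000 to 87052000, that met 2 strong set 1 zones.

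Long stretches without a pair gathered on distal chromosome 4. The longest ran from 111591000 to 126812000 (15222 kb), the third longest from 127296000 to 138989000 (11694 kb) and the fourth from 144962000 to the last zone at 156569000 (11608 kb). The others of the 5 longest lay on chromosome 7 from 13871000 to 26044000 (12174 kb) and on chromosome 12 from 104473000 to 114856000 (10384 kb). These were not empty of zones, since the longest held 166 zones of set 1 and 152 of set 2. It held 12 strong zones of set 1 and 4 of set 2, or 7.88 and 2.63 per 10 Mb, against 11.6 and 10.1 over all chromosomes. In the stretch at the end of chromosome 4 the counts were 8 and 1, or 6.89 and 0.861 per 10 Mb. In the chromosome 7 stretch they were 3 and 5, and in the third longest stretch 5 and 4. In the chromosome 12 stretch they were 10 and 6, or 9.63 and 5.78 per 10 Mb. Sequence that cannot be mapped was not examined.

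Windows of 10 Mb held a median of 6 pairs (quartiles 4 and 8, 230 windows). Chromosome 7 from 103095000 to 113094000 held the most, 14, followed by chromosome 10 from 23070000 to 33069000 with 13 and chromosome 2 from 63071000 to 73070000 with 12. Chromosome 4 from 113051000 to 123050000 held none, with 9 strong zones of set 1 and 2 of set 2. Chromosome 5 from 133112000 to 143111000 and chromosome 7 from 3095000 to 13094000 held 1 each, as did 4 of the other windows. The fullest window held 16 strong zones of set 1 and 19 of set 2. Zones of any score did not follow that order between the fullest window and the window without a pair. The fullest held 104 of set 1 and 92 of set 2, and the window without a pair held 114 and 108.

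Pairs were more frequent towards the centromere end. Mouse autosomes carry the centromere at the low-numbered end, so positions count away from it. Of the 1480 pairs, 815 lay below the midpoint of the zone-bearing span of their chromosome and 665 above it, a share of 55.1% below (95% exact interval 52.5 to 57.6). The lower side held more on 16 of 19 chromosomes, and chromosomes 7, 13 and 17 held more on the upper side. The difference was widest in proportion on chromosome 19, with 28 against 8. All zones leaned slightly the other way, with 49.4% of set 1 and 49.3% of set 2 below the midpoint. The split of the pairs was noticed in these data, and no test of it was made.

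Of 10 equal parts of the span, the one nearest the centromere held 181 pairs (12.2%) and the most distal one 117 (7.91%). Strong zones of set 2 numbered 302 and 204 in these parts and those of set 1 305 and 268. Below the midpoint lay 54.2% of the strong zones of set 2 (more on 15 of 19 chromosomes) and 52.2% of those of set 1 (more on 14). The share of set 1 strong zones that were in a pair went from 59.0% (95% exact interval 53.3 to 64.6) in the part nearest the centromere to 43.3% (37.3 to 49.4) in the most distal one. For set 2 the corresponding shares were 59.6% (53.8 to 65.2) and 55.4% (48.3 to 62.3). These intervals cover counting error only and treat neighbouring zones as independent, and neither change along the span was tested. The highest set 2 share, 67.8% (60.9 to 74.1), was in part 9 counted from the centromere. Set 2 thus had no steady fall along the span. Strong zones of set 1 outside pairs had 48.8% below the midpoint and those of set 2 53.0%.

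**Figure D5:**
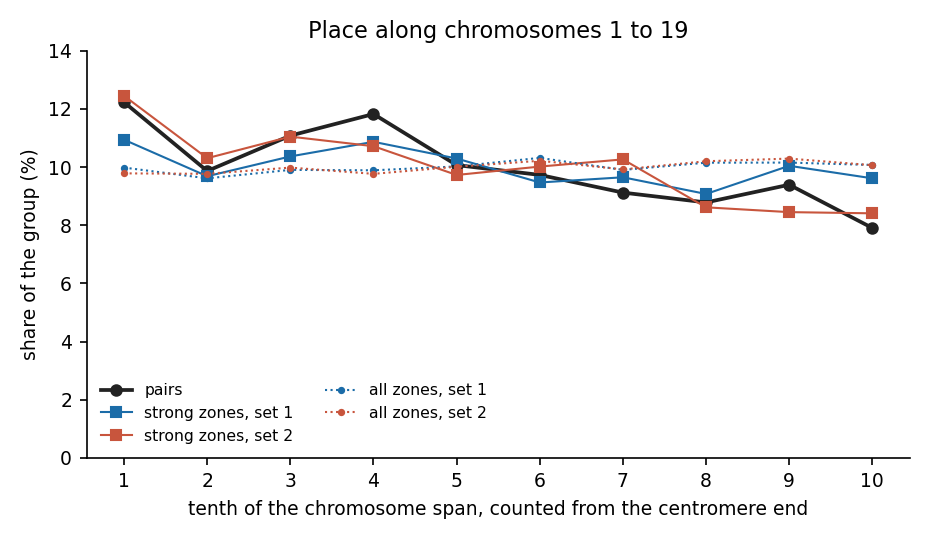
Share of each group (%, y) in each of 10 equal parts of the zone-bearing span of chromosomes 1 to 19 (x, part 1 is nearest the centromere) for pairs, strong zones and all zones. Pairs fall from 12.2% in part 1 to 7.91% in part 10, while all zones stay near 10% throughout.

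Density of pairs and closeness of their zones are given by chromosome as descriptions, and differences between chromosomes were not tested. Density had a mean of 0.612 per Mb ± 0.0834 (SD over 19 chromosomes). The median centre shift per chromosome ran from 11 kb on chromosome 2 (123 pairs) to 20 kb on chromosome 18 (47 pairs). The median common part ran from 60.02% on chromosome 14 (70 pairs) to 69.7% on chromosome 9 (76 pairs). These measures did not rank chromosomes alike, since chromosome 14 had a median shift of 12.75 kb. The share of set 1 strong zones in a pair ran from 43.9% on chromosome 5 to 58.0% on chromosome 14, and that of set 2 from 52.3% on chromosome 18 to 70.2% on chromosome 17. On the X chromosome, which the rule leaves out, the same score minimums gave 111 pairs with a median shift of 17 kb and a common part of 58.9%. Both X values were less close than the autosome medians. The common part on X lay below the lowest autosome, while its shift lay within the range of the autosomes. Member zones on X were narrower, at 69 kb in set 1 and 81 kb in set 2.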

How the data were processed

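Per the submitters' processing notes, reads were aligned with Bowtie2 to GRCm39 (no version is listed). The authors deposited 2 lists of zones without a header. The calling method and the meaning of the deposited score are not stated. Positions are multiples of 1 kb, and the last was read as the last bin of the zone.

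On chromosomes 1 to 19, zones at or above the 90th percentile of score of their own list were kept, and pairs sharing at least 1 bin were taken. Gaps count empty bins to the nearest zone of the same list. A chromosome's span reaches from its lowest to its highest listed zone. No test was made, since each list is 1 value per zone. Intervals are exact binomial at 95%. Members, lists and named regions were chosen with earlier results of these data known. Regions named are the best-ranked, closest, most shifted and most isolated pairs, the densest runs, the longest intervals without a pair, the extreme windows and those at the score minimum. The pair search was run on simulated data and found 199 of 199 planted pairs that met the overlap rule. Planted pairs lay far apart, so this checks the code and not the pairing of crowded zones. Python 3.11.15, NumPy 2.4.6, pandas 2.3.3, SciPy 1.17.1 and Matplotlib 3.10.9 were used. Genes and sequences were not used, because the tables at hand are on another genome build.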

Additional observations from a re-analysis of the deposited data

How the results depend on the processing

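The number of pairs, 1480, was 3354 at the 80th percentile of score, 641 at the 95th and 206 at the 98th, and 587 with midpoints within 10 kb. The mean share of strong zones in a pair, 56.6%, was 63.0%, 49.2% and 39.7% at those percentiles, 47.7% with reciprocal overlap of 50%, 22.6% by midpoints and 49.0% for the widest 10% of zones; the separate values of the sets were 52.9% and 60.2%. The centre shift, 14 kb, was 16 kb at the 80th percentile, 11 kb with reciprocal overlap, 5 kb by midpoints, where the rule caps it, and 16.5 kb for the widest zones. The edge offset, 17 kb, was 18, 14, 9 and 19 kb in the same order. Member width, a mean of 85.75 kb over the sets, was 74.5, 96.5 and 104.25 kb at the 80th, 95th and 98th percentiles and 91.5 kb for the widest zones; the sets alone gave 82 and 89.5 kb. The flanking gap, 69.25 kb, was 62 and 76.5 kb in the sets alone and 610.5 kb when measured to the nearest strong zone, by construction. Spacing, 1096 kb, was 559.5, 2313.75 and 5907 kb at the 80th, 95th and 98th percentiles, 1293.5 kb with reciprocal overlap, 2503 kb by midpoints, 1254.5 kb for the widest zones, 1211 kb with plain interval ends and 986 kb between facing edges; fewer pairs lie further apart. The share of pairs in the outermost of the 10 parts at either end, 20.1%, was 17.0% at the 98th percentile, where 206 pairs remained. Over all zones that share was 20.05% in set 1 and 19.85% in set 2, close to that of the pairs. The share of pairs on the centromere side of the midpoint, 55.1%, chosen with its alternatives after the data were seen, was 52.3% at the 80th, 58.0% at the 95th and 62.6% at the 98th percentile; the cause was not tested. That side held more pairs on 13 to 16 chromosomes under all 9 alternatives. A pair needs both sets, so values of 1 set alone are no test without the other. Depth is unknown, so no limit from depth could be set. No paired analysis was possible because neither list separates the parent from the Pole1-M630F libraries.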
